A study of Mus musculus with 10 samples.

Results

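The 42 genes described here encode the machinery of autophagy, the route by which a cell wraps cytoplasm in a double membrane and delivers it to the lysosome for breakdown. They were chosen by name, from the known parts of the pathway, out of 47632 genes in an RNA sequencing table of mouse striatum. Earlier results of these data were known when the genes were chosen. The striatum is the brain area hit first in Huntington's disease. The control group was 5 libraries from isogenic wild-type mice and the other group 5 libraries from R6/2 hemizygous mice, all harvested at 11 weeks of age. R6/2 mice carry a transgene with the first exon of human huntingtin and an expanded CAG repeat, driven by human huntingtin promoter sequence, in addition to their own huntingtin genes. RNA was from bulk striatum, and whether every library is a separate mouse is unstated, so the p-values cover only the variation among these 10 libraries, part of which may be technical. Values are FPKM, a level scaled to transcript length and to the library's sequenced fragments, and the depth behind them is unknown.

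Autophagy starts when the kinases ULK1 and ULK2, held in check by mTOR, activate a lipid kinase complex built on Beclin 1. The growing membrane is extended with lipid supplied through ATG9 and ATG2 proteins and decorated with small ubiquitin-like proteins of the LC3 and GABARAP families, which receptors such as p62 (Sqstm1) and optineurin (Optn) use to bring in ubiquitinated cargo. Neurons depend on the route to clear aggregated protein, and mutant huntingtin is among its known cargoes. Transcript levels do not measure how much cargo passes through it.

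Markers of several cell types differed between the groups. Summed levels of 10 spiny projection neuron markers, the main striatal neurons, were 1729 to 2169 FPKM in controls and 245 to 379.8 in R6/2, and all 10 fell. The sum of 4 cortical excitatory neuron markers was 21.5 to 47.0 FPKM in controls and 48.3 to 83.9 in R6/2, lowest in Controls 3 and 1 and highest in R6/2 3 and 2. Sums in controls and R6/2 were 1069 to 1294 and 769 to 917 FPKM for 7 astrocyte markers, 1496 to 1684 and 691 to 1065 for 6 myelin markers, 35.3 to 47.4 and 27.6 to 32.9 for 6 microglia markers, and 14.3 to 21.3 and 12.9 to 17.1 for 5 endothelial markers. By the test used for all genes, 3 of the 7 astrocyte, 3 of the 6 myelin, 1 of the 5 tested microglia and 0 of the 4 tested endothelial markers fell, and 1 of the 4 cortical markers rose. In bulk tissue, fewer cells of a type and less RNA per cell cannot be told apart. No marker was at 0 in every library, and 1 microglia marker was listed at 0 in a library. The part of these shifts in the results on autophagy genes was not tested beyond a limma model with the cortical signal as a term.

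None of the autophagy genes passed the test for a difference between R6/2 and control striatum. Of the 42, 41 reached an average level of 1 FPKM and were tested, and 0 were called higher and 0 lower (limma on log2(FPKM + 1), Benjamini-Hochberg adjusted p under 0.05 over all 15905 genes tested). Over all genes tested 14.1% were called, 5.00% higher and 9.11% lower. The lowest adjusted p among the autophagy genes was 0.0586, for Wipi1. At an unadjusted p under 0.05 there were 7 of 41 (17.1%), where all genes tested gave 27.5%. In none of the 41 did the R6/2 values lie all above or all below the control values, which was so for 13.1% of all genes tested.

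The estimated changes lay on both sides of 0. They ran from -0.38 (Atg4d) to 0.42 (Rptor) on the log2(FPKM + 1) scale, R6/2 minus control, with a median of -0.02 beside 0.001 for all genes tested. The estimate was above 0 for 18 genes and below 0 for 23. The median size of the change without its sign was 0.12, beside 0.26 over all genes tested. The value added before taking logs sets the size for low genes. With 0.1 FPKM the range was -0.65 (Atg4d) to 0.59 (Tfeb), with Optn at 0.47 and Atg10 at -0.45, and with 5 FPKM it was -0.26 (Pink1) to 0.35 (Rptor), with Atg4d at -0.14. For 27 of the 41 the 95% limma interval lay wholly within a 1.5-fold change in either direction (26 with 0.1 FPKM added and 36 with 5), and for 40 within 2-fold. The 14 genes whose interval reached 1.5-fold were Ulk1, Atg101, Uvrag, Atg4a, Atg4b, Atg4d, Atg5, Atg10, Atg16l1, Optn, Nbr1, Pink1, Tfeb and Rptor, so for these a change of that size was not excluded with 5 libraries a group. The count of 27 within 1.5-fold became 18 with the cortical signal in the model. It was 24 to 28 when each library was left out, so which genes reach 1.5-fold depends on the fit. Atg2a, which encodes a lipid transfer protein, was below the level filter in both groups, at 0.577 to 0.849 FPKM in controls and 0.346 to 0.938 in R6/2.

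**Figure D1:**
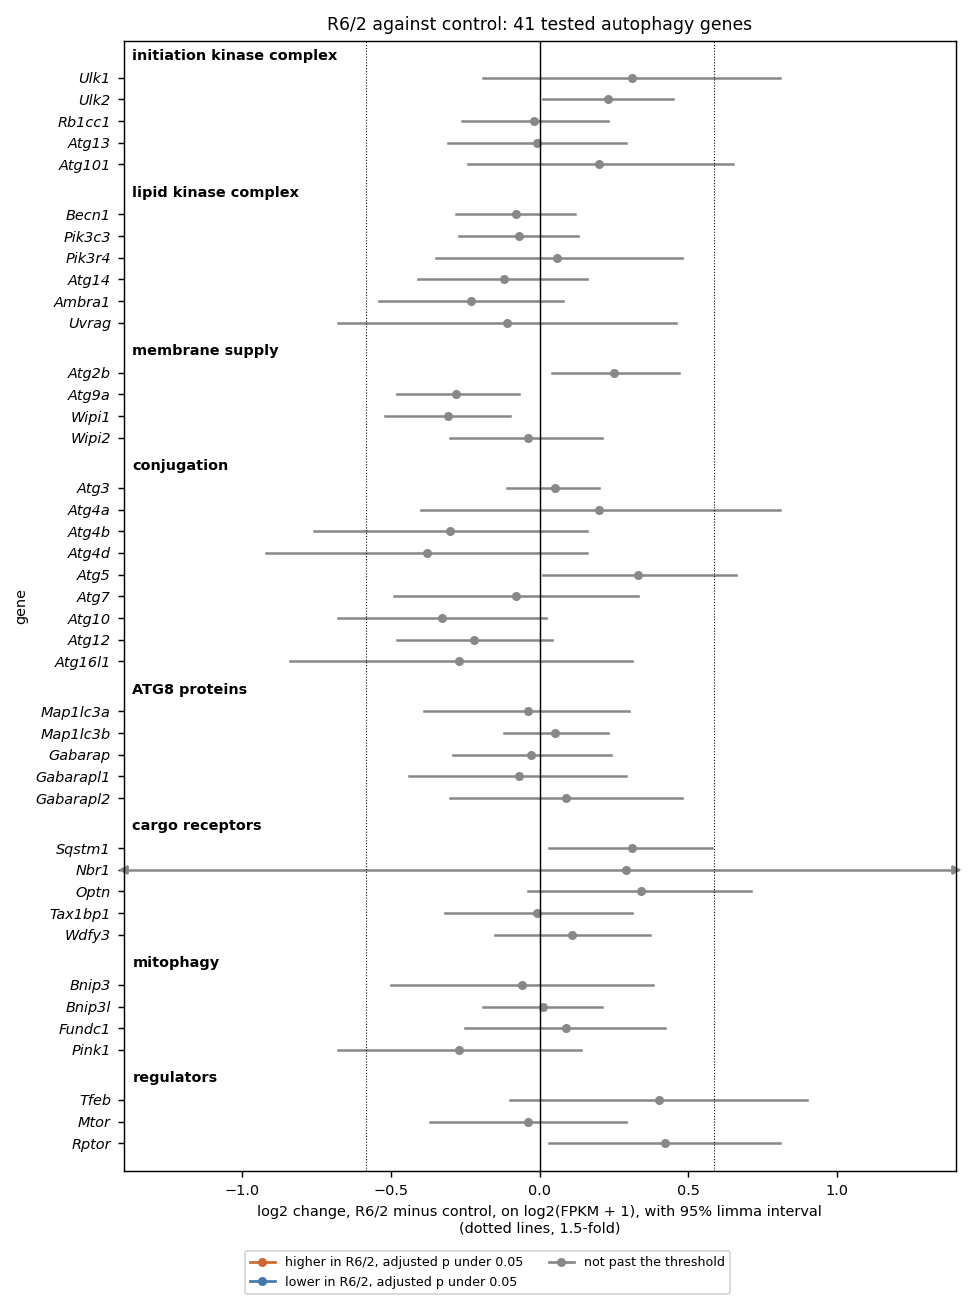
Estimated log2 change (x axis, R6/2 minus control on log2(FPKM + 1)) with its 95% limma interval for the 41 tested autophagy genes (y axis), grouped by role; dotted lines mark 1.5-fold and arrows an interval that runs off the axis. The estimates lie between -0.38 and 0.42 and no gene passed the adjusted threshold.

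The count of 0 depended on the libraries and the scaling. Without Control 5, 4 genes were called lower, and these were Atg9a (limma adjusted p = 0.0197), Pink1 (0.0381), Wipi1 (0.0422) and Atg4b (0.0491). That is 9.76% of the 41, where 9.54% of all genes tested were called lower without that library. Without R6/2 3, Rptor was called higher (0.0449) and Atg9a lower (0.0466), and without R6/2 4 Wipi1 was called lower (0.0309). Each of these calls is 2.44% of the 41. Over all genes tested, 3.85% were called higher and 8.04% lower without R6/2 3, and 8.26% lower without R6/2 4. Leaving out each of the other 7 libraries gave no call. In the model with the cortical signal 0 of the 41 were called and 0 had an unadjusted p under 0.05, but calls over all genes fell there from 14.1% to 4.06%. That signal did not overlap between the groups, so the 0 says little about these genes. Estimates moved both ways in that model. They moved toward 0 for genes such as Atg5 (0.33 to 0.05), Atg4b (-0.30 to -0.01), Atg4d (-0.38 to -0.08), Optn (0.34 to 0.12) and Pink1 (-0.27 to -0.08). They moved away from 0 for genes such as Tfeb (0.40 to 0.58), Atg101 (0.20 to 0.33), Fundc1 (0.09 to 0.25) and Gabarap (-0.03 to -0.18). The median size of the change without its sign was 0.12 with the cortical term, as it was without that term. Control 5 held the lowest of the 10 values for 9 of the 41 genes and the highest for 1, and Control 1 held the lowest for 8 and the highest for 8. The summed FPKM of protein-coding genes was lower in the R6/2 libraries (193203 to 202906) than in controls (211209 to 219426). It was a small part of the FPKM summed over all listed genes, which ran from 1545169 to 2309123 per library. With the protein-coding sum rescaled to 1 total, Atg2b, Sqstm1 and Ulk2 were called higher (limma adjusted p = 0.0354, 0.0435 and 0.0437). Over all genes tested 1482 were then called higher and 1192 lower, in place of 795 and 1449.

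Levels differed among the autophagy genes far more than between the groups. On the FPKM scale, which is per transcript length, the highest means over the 10 libraries after Nbr1 were those of Gabarapl1 (79.9), Pink1 (74.3), Sqstm1 (69.3), Ulk2 (56.0) and Tax1bp1 (49.5). The lowest among tested genes were Atg4a (1.28), Atg4d (1.29) and Tfeb (2.24). Within families the copies were unequal. Among the ATG8 proteins, Gabarapl1 was at 79.9 and Gabarapl2 at 5.33 FPKM. Among the ATG4 proteases, Atg4c, which is counted here with the other pathway genes, was at 11.7 FPKM and Atg4b at 6.16, both above Atg4a and Atg4d.

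Cargo receptors bind ubiquitinated protein on the one side and the ATG8 proteins of the growing membrane on the other. Sqstm1 encodes p62, the receptor that gathers ubiquitinated protein into bodies and is itself degraded by autophagy (GRCm38 chromosome 11, 50199366 to 50210827). It was at 59.0, 64.1, 66.2, 63.8 and 54.5 FPKM in Controls 1 to 5 and at 66.8, 93.6, 65.3, 67.6 and 92.2 FPKM in R6/2 1 to 5. R6/2 2 and R6/2 5 stood above the other 8 libraries, while R6/2 3 lay below Control 3, so the groups overlapped. The means were 61.5 ± 4.70 and 77.1 ± 14.5 FPKM (SD, n = 5, log2 change 0.31, 95% interval 0.03 to 0.58, limma adjusted p = 0.141), and the gene passed after quantile normalization (log2 change 0.45, limma adjusted p = 0.0354) as well as after the rescaling. Exons of 16 of the 42 genes overlap another gene, and with a strand setting not given in the sources used here their reads cannot be told apart. Of the genes described by library these are Sqstm1 (Mrnip), Becn1 (Cntd1), Map1lc3b (Zcchc14), Atg9a (Ankzf1), Atg2b (Gskip) and Optn, Wdfy3, Rptor and Pink1 (genes with no known protein).

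Optn encodes optineurin, a receptor for ubiquitinated cargo and damaged mitochondria (chromosome 2, 5020642 to 5064051). Its level was 1.77, 3.16, 1.75, 1.41 and 2.85 FPKM in Controls 1 to 5 and 2.32, 3.07, 3.25, 3.12 and 3.01 FPKM in R6/2 1 to 5. The controls split into 3 low and 2 high libraries, and the 2 high ones lay within the R6/2 range. The log2 change was 0.34 (95% interval -0.04 to 0.71, limma adjusted p = 0.231).

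Wdfy3 encodes ALFY, a large scaffold that links aggregated protein to the autophagy machinery (chromosome 5, 101832956 to 102069921). It was at 33.1, 46.8, 42.5, 41.8 and 38.3 FPKM in Controls 1 to 5 and at 50.9, 44.0, 39.9, 47.8 and 36.6 FPKM in R6/2 1 to 5. The groups shared most of their range, with a log2 change of 0.11 (95% interval -0.15 to 0.37, limma adjusted p = 0.582). The receptor gene Tax1bp1 ran from 39.0 to 61.2 FPKM in controls and from 44.5 to 53.2 in R6/2 (log2 change -0.01, 95% interval -0.32 to 0.31). Its sign turned under both other scalings, which gave 0.12 and 0.11.

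Nbr1, a receptor related to p62, could not be judged. It was at 34.5, 28.8, 35.0 and 27.4 FPKM in Controls 1, 3, 4 and 5 but at 1059 in Control 2. In R6/2 it was at 32.5, 20.8 and 29.4 FPKM in libraries 3, 4 and 5 but at 259 and 546 in R6/2 1 and R6/2 2. Libraries far above the rest thus came from both groups, and the 95% interval of the log2 change (-2.50 to 3.08) spans a fold from 0.18 to 8.48. The cause was not tested.

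The initiation complex joins the ULK kinases to the scaffold FIP200 (Rb1cc1) and the adaptors ATG13 and ATG101. Ulk1 (chromosome 5, 110784488 to 110810097) was at 24.4, 26.4, 21.5, 39.0 and 14.3 FPKM in Controls 1 to 5 and at 27.8, 28.9, 27.0, 38.1 and 28.7 FPKM in R6/2 1 to 5. Control 4 and R6/2 4 were the highest and Control 5 the lowest, and the other R6/2 values lay within 27.0 to 28.9. The log2 change was 0.31 with a wide 95% interval of -0.19 to 0.81 (limma adjusted p = 0.423), and it was 0.13 without Control 5 and 0.48 without Control 4.

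Ulk2, the other initiating kinase gene, was higher than Ulk1 in each of the 10 libraries on the FPKM scale. It was at 41.2, 48.3, 55.1, 54.2 and 59.1 FPKM in Controls 1 to 5 and at 61.1, 55.6, 60.0, 63.7 and 61.7 FPKM in R6/2 1 to 5. Each R6/2 library exceeded each control except R6/2 2, which lay below Control 5 (log2 change 0.23, 95% interval 0.01 to 0.45, limma adjusted p = 0.154). After quantile normalization Ulk2 passed, with a log2 change of 0.37 (limma adjusted p = 0.0354). Rb1cc1 and Atg13 had estimates near 0 (-0.02 and -0.01), whose signs turned under both other scalings (0.09 and 0.09 for Rb1cc1, 0.03 and 0.10 for Atg13). Atg101 was low, at 1.41 to 3.37 FPKM in controls and 1.99 to 4.37 in R6/2.

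The lipid kinase complex makes the phosphoinositide that marks the site where the membrane forms. Becn1 encodes Beclin 1, its regulatory core (chromosome 11, 101285952 to 101302286). It was at 18.5, 16.6, 15.5, 15.2 and 14.6 FPKM in Controls 1 to 5 and at 14.9, 15.6, 17.4, 13.6 and 14.1 FPKM in R6/2 1 to 5. The ranges lay almost on top of each other, with a log2 change of -0.08 (95% interval -0.28 to 0.12, limma adjusted p = 0.592) and 0.03 after rescaling of protein-coding genes. The kinase gene Pik3c3, which encodes VPS34, had a log2 change of -0.07 (95% interval -0.27 to 0.13, and 0.04 after the rescaling). Its partner Pik3r4 had 0.06, the targeting subunit gene Atg14 -0.12, Ambra1, which ties Beclin 1 to the ULK complex, -0.23, and Uvrag, of the late-stage complex, -0.11. Uvrag varied most within controls, from 8.58 to 22.2 FPKM, where R6/2 ran from 9.55 to 15.6.

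Of the 4 tested genes that supply membrane, 3 had an unadjusted p under 0.05, where all genes tested gave 27.5%. These are 3 of the 7 autophagy genes under that limit, and the group was pointed out after the values were seen. The 6 genes other than Sqstm1 described library by library for an unadjusted p under 0.05 (Ulk2, Atg9a, Wipi1, Atg2b, Atg5 and Rptor) were chosen after their values were seen. So were Atg4b, Pink1 and Nbr1, which are also described by library but were not under that limit. Atg9a, which encodes the transmembrane lipid scramblase carried on small vesicles, was at 13.8, 13.8, 13.4, 13.4 and 10.8 FPKM in Controls 1 to 5 and at 10.1, 10.9, 12.1, 10.4 and 9.36 FPKM in R6/2 1 to 5. The R6/2 libraries were all below 4 of the controls, and only Control 5 lay among them. The log2 change was -0.28 (95% interval -0.48 to -0.07, limma adjusted p = 0.0748).

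Wipi1 encodes a protein that binds the phosphoinositide made by VPS34. It was at 6.22, 6.63, 6.14, 6.95 and 5.52 FPKM in Controls 1 to 5 and at 5.14, 4.51, 4.21, 5.88 and 4.79 FPKM in R6/2 1 to 5. Control 5 and R6/2 4 were the only libraries in the overlap (log2 change -0.31, 95% interval -0.52 to -0.10, limma adjusted p = 0.0586). With array weights, which give less weight to libraries that vary more, Wipi1 (limma adjusted p = 0.043) and Atg9a (0.027) were called lower. With those weights 9.83% of all genes tested were called lower. The related Wipi2 had a log2 change of -0.04, and 0.06 after rescaling.

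Atg2b encodes a bridge-like lipid transfer protein. It was at 5.80, 5.54, 5.81, 5.83 and 4.82 FPKM in Controls 1 to 5 and at 7.34, 7.71, 7.42, 6.03 and 5.72 FPKM in R6/2 1 to 5. All R6/2 libraries but R6/2 5 exceeded each control, R6/2 4 by little (log2 change 0.25, 95% interval 0.04 to 0.47, limma adjusted p = 0.118). The estimates for the membrane supply genes thus pointed both ways, and none passed.

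**Figure D2:**
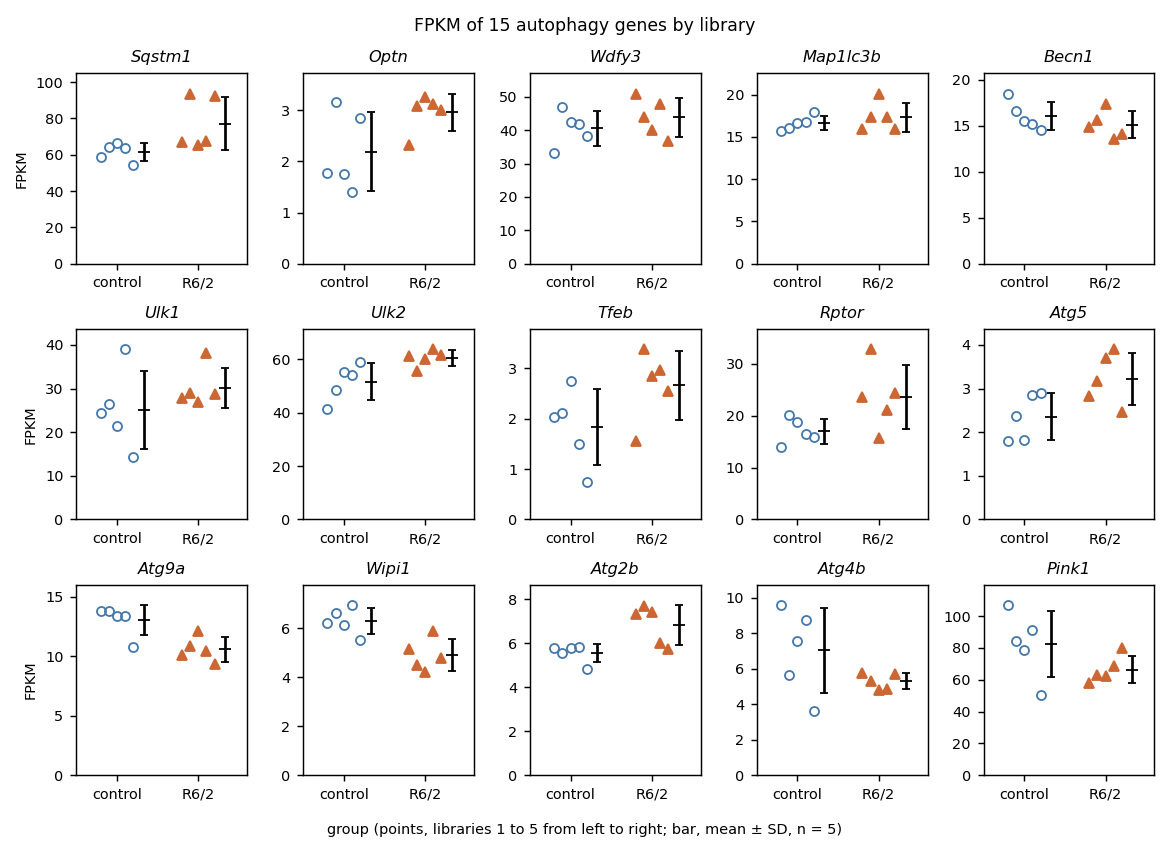
FPKM (y axis, from 0) of 15 autophagy genes in the control and R6/2 libraries (x axis), each point a library, with the mean and SD (n = 5) beside them. For Atg9a and Wipi1 Control 5 lies lowest among the controls and within the R6/2 range, and for Sqstm1 R6/2 2 and R6/2 5 lie above the other 8 libraries.

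The conjugation genes attach ATG12 to ATG5 and the ATG8 proteins to membrane lipid. Atg5 was at 1.80, 2.38, 1.82, 2.86 and 2.91 FPKM in Controls 1 to 5 and at 2.84, 3.17, 3.71, 3.90 and 2.46 FPKM in R6/2 1 to 5. R6/2 2, 3 and 4 exceeded each control and the other 2 did not (log2 change 0.33, 95% interval 0.01 to 0.66, limma adjusted p = 0.172). Estimates were below 0 for 6 of the 9 genes of this group, among them Atg12 (-0.22), Atg10 (-0.33), the enzyme for the ATG12 link, and Atg16l1 (-0.27), the membrane anchor of the complex. Atg7 (-0.08), the activating enzyme of both reactions, and Atg3 (0.05), the enzyme that carries ATG8 proteins, were nearest to 0. Atg3 had the narrowest interval of the 9, -0.11 to 0.20.

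The ATG4 proteases trim and recycle the ATG8 proteins. Atg4b was at 9.58, 5.65, 7.57, 8.72 and 3.64 FPKM in Controls 1 to 5 and at 5.77, 5.31, 4.82, 4.83 and 5.67 FPKM in R6/2 1 to 5. The R6/2 values were tightly grouped within the wide control range (log2 change -0.30, limma adjusted p = 0.4, -0.48 without Control 5 and -0.18 without Control 1). Atg4a (0.20) and Atg4d (-0.38) had low levels and intervals of -0.40 to 0.81 and -0.92 to 0.16.

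The promoters of these genes are of interest because TFEB, the transcription factor that controls many autophagy and lysosome genes, binds sites with the core CACGTG. In the 250 bases before each annotated start, the core was found in 4 of 39 windows of the 34 autophagy genes that matched the RefSeq promoter table (10.3%, GRCm38.p6), and in 6.02% of all 32851 windows. The motif is its own reverse complement, so a search of one strand covers both. The longer palindrome in which the core has GT before it and AC after it, a form of the TFEB site, was in 0 of the 39 windows and in 0.24% of all windows. The 4 genes whose windows hold the core are shown, less bases that fall in an annotated exon, with CACGTG in capitals.
Atg3 (chr16:45158707-45158784, plus strand): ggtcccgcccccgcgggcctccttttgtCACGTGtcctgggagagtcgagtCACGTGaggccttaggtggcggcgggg
Atg5 (chr10:44268089-44268338, plus strand): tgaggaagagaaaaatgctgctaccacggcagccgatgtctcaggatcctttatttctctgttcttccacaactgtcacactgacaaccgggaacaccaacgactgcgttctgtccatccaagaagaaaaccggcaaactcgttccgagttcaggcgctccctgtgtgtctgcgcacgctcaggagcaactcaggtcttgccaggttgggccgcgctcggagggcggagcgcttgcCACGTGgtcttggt
Atg7 (chr6:114670846-114671095, plus strand): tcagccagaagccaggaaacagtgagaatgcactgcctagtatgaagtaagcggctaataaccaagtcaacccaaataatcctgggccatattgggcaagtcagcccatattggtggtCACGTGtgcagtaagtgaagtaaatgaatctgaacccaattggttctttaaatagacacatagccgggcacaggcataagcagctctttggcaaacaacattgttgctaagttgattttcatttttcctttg
Bnip3 (chr7:138909520-138909756, minus strand): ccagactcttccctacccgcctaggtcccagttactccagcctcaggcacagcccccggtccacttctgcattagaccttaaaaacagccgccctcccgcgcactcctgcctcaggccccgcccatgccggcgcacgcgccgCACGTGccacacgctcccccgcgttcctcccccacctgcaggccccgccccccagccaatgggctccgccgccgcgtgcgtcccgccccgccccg
Atg3 holds 2 copies, which start 94 and 71 bases before its start site, and in Atg5 the core starts 14 bases before it. The Atg7 window lies inside the annotated gene (114643097 to 114860614), so it precedes an internal start and not the first start of the gene. The log2 changes of the 4 genes were 0.05 for Atg3, 0.33 for Atg5, -0.08 for Atg7 and -0.06 for Bnip3, and none passed. A match says only that these letters are present.

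The ATG8 proteins are the ubiquitin-like coat of the autophagosome, and the estimates of all 5 genes lay between -0.07 and 0.09 on the log2 scale, with intervals within 1.5-fold. Map1lc3b, which encodes LC3B, the usual marker of autophagosomes (chromosome 8, 121590361 to 121598760), was at 15.7, 16.1, 16.6, 16.7 and 17.9 FPKM in Controls 1 to 5 and at 15.9, 17.4, 20.1, 17.3 and 15.9 FPKM in R6/2 1 to 5. All but R6/2 3 lay within the control range (log2 change 0.05, 95% interval -0.12 to 0.23, limma adjusted p = 0.697, and -0.06 with cortical signal in the model). The log2 changes of Map1lc3a (-0.04), Gabarap (-0.03) and Gabarapl1 (-0.07) turned sign under both other scalings, and that of Gabarapl2 was 0.09. Summed over the 5 genes, the level was 159.7 ± 11.3 FPKM in controls and 157 ± 18.3 FPKM in R6/2 (SD, n = 5).

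Mitophagy genes direct mitochondria to autophagosomes. Pink1, the kinase gene that marks damaged mitochondria, was at 107, 84.2, 79.0, 91.5 and 50.3 FPKM in Controls 1 to 5 and at 57.7, 63.0, 62.5, 68.8 and 80.0 FPKM in R6/2 1 to 5. Only Control 5 lay below the R6/2 libraries, and only R6/2 5 reached the other 4 controls (log2 change -0.27, 95% interval -0.68 to 0.14, limma adjusted p = 0.384). It was -0.44 without Control 5 and -0.17 without Control 1. The receptors of the outer mitochondrial membrane had estimates of -0.06 (Bnip3), 0.01 (Bnip3l) and 0.09 (Fundc1). For Bnip3l the interval was -0.19 to 0.21.

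Among the regulators, Tfeb (chromosome 17, 47737030 to 47792419) was at 2.04, 2.12, 2.75, 1.49 and 0.739 FPKM in Controls 1 to 5 and at 1.56, 3.38, 2.86, 2.96 and 2.56 FPKM in R6/2 1 to 5. Of the R6/2 libraries 3 exceeded each control and R6/2 1 was below 3 controls (log2 change 0.40, 95% interval -0.10 to 0.90, limma adjusted p = 0.291). It was 0.23 without Control 5, and 0.17 with 5 FPKM added before taking logs. Mtor, the kinase that holds autophagy off when nutrients are plentiful, ran from 16.0 to 23.7 FPKM in controls and from 14.7 to 24.6 in R6/2 (log2 change -0.04, and 0.01 and 0.07 under the other scalings).

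Rptor encodes raptor, the subunit by which mTOR complex 1 finds its substrates. It was at 14, 20.1, 18.8, 16.4 and 15.9 FPKM in Controls 1 to 5 and at 23.6, 32.8, 15.8, 21.1 and 24.3 FPKM in R6/2 1 to 5. Of the R6/2 libraries 4 exceeded each control and R6/2 3 lay among the controls. The log2 change was 0.42 (95% interval 0.03 to 0.81, limma adjusted p = 0.15).

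Other genes of the pathway were called about as often as genes in general. Of 74 such genes in 4 lists, 69 were tested, and 6 rose and 4 fell (14.5% called, where all genes tested gave 14.1%). At an unadjusted p under 0.05 there were 17 of 69 (24.6%), where all genes tested gave 27.5%. With protein-coding genes rescaled to 1 total, 10 rose and 4 fell, where 9.32% of all genes tested rose and 7.49% fell. The median log2 change of the 69 genes before rescaling was 0.01. By list, 2 rose and 2 fell of 28 nutrient and energy signalling genes, 1 rose and 2 fell of 15 further genes of autophagosome formation, 1 rose of 12 further receptors and regulators of selective autophagy, and 2 rose of 14 genes for fusion with the lysosome.

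Among the signalling genes, Rragd fell. It encodes RagD, a GTPase that recruits mTOR complex 1 and TFEB to the lysosome (chromosome 4, 32983037 to 33022180). It was at 49.2, 41.3, 42.8, 32.5 and 30.7 FPKM in Controls 1 to 5 and at 19.9, 21.4, 17.2, 17.1 and 18.0 FPKM in R6/2 1 to 5, so the groups were far apart. The log2 change was -1.02 (SE 0.13, limma adjusted p = 8.80e-04).

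Deptor, an inhibitor that binds mTOR, fell by 0.47 on the log2 scale (5.57 ± 0.667 FPKM in controls, 3.74 ± 0.323 in R6/2, SD, n = 5, limma adjusted p = 0.00918). Flcn, which encodes folliculin, a regulator of the Rag GTPases, rose by 0.56 (6.23 ± 0.887 FPKM in controls, 9.79 ± 2.24 in R6/2, SD, n = 5, limma adjusted p = 0.0396). Rragb, another Rag GTPase gene, rose by 0.49 (7.5 ± 0.492 FPKM in controls, 11.1 ± 2.39 in R6/2, SD, n = 5, limma adjusted p = 0.0436). Of the Rag genes, 1 fell and 1 rose. Rragb was outside the naming rule and was chosen after its values were seen.

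Of the formation genes, Trp53inp2, whose product shuttles from the nucleus to bind ATG8 proteins, fell by 0.58 on the log2 scale (68.8 ± 3.76 FPKM in controls, 45.7 ± 4.35 in R6/2, SD, n = 5, limma adjusted p = 0.00101). The groups were well apart, with 64.1 FPKM the lowest control and 50.3 the highest R6/2 value. Bcl2, whose product binds Beclin 1 and blocks cell death, fell by as much, from a mean of 12.3 FPKM in controls to 8.01 in R6/2 (limma adjusted p = 0.0128). Tollip, an adaptor for ubiquitinated cargo, rose by 0.34 (limma adjusted p = 0.0214).

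Among further receptors, Ccpg1, a receptor for endoplasmic reticulum, rose by 0.45 (31.3 ± 3.93 FPKM in controls, 42.9 ± 4.04 in R6/2, SD, n = 5, limma adjusted p = 0.0181). Exons of Ccpg1 overlap Pigb, on the opposite strand, and Gm44503. Calcoco1 (-0.19, limma adjusted p = 0.0933) and Rtn3 (0.30, 0.15) did not pass. Rtn3 passed without Control 5 (0.40, 0.0172), after quantile normalization (0.47, 0.00947) and after rescaling (0.41, 0.041), and its change was 0.10 in the model with the cortical signal. The fusion genes Stx17, the syntaxin of the autophagosome (log2 change 0.39, limma adjusted p = 0.0371), and Ykt6, another SNARE gene (0.46, 0.0399), rose, and Fyco1, which links autophagosomes to kinesin (-0.37, 0.125), did not pass.

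Several of these calls were marginal. Rragd and Trp53inp2 passed in each of the 20 alternatives, with highest adjusted p-values of 0.0416 and 0.0272. The call of Flcn was lost when any library but R6/2 5 was left out (limma adjusted p = 0.051 to 0.096), that of Rragb without any but R6/2 4 (0.0705 to 0.0985), that of Stx17 without any but Control 2 or R6/2 2 (0.0541 to 0.0812) and that of Ykt6 without any but Control 2 or R6/2 4 (0.0574 to 0.0894). In the model with the cortical signal, 0 of the 69 pathway genes were called higher and 3 lower. Calls over all genes tested fell there too, from 5.00% to 0.748% higher and from 9.11% to 3.31% lower. The 3 called lower were Rragd (log2 change -0.81, limma adjusted p = 0.0416), Trp53inp2 (-0.60, 0.0272) and Vmp1 (-0.70, 0.0475). Vmp1, a gene for a membrane scramblase, was not called without that term. All 6 genes called higher lost their call there. The estimate of Flcn (0.56 to 0.55) hardly moved. Those of Rragb (0.49 to 0.31), Ykt6 (0.46 to 0.35), Ccpg1 (0.45 to 0.37), Stx17 (0.39 to 0.31) and Tollip (0.34 to 0.27) moved toward 0. Deptor (-0.49, 0.104) and Bcl2 (-0.68, 0.082) also lost their call, at estimates no nearer to 0 than before. Flcn, Stx17, Rragb and Ykt6 were also not called when the filter on low values was dropped.

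**Figure D3:**
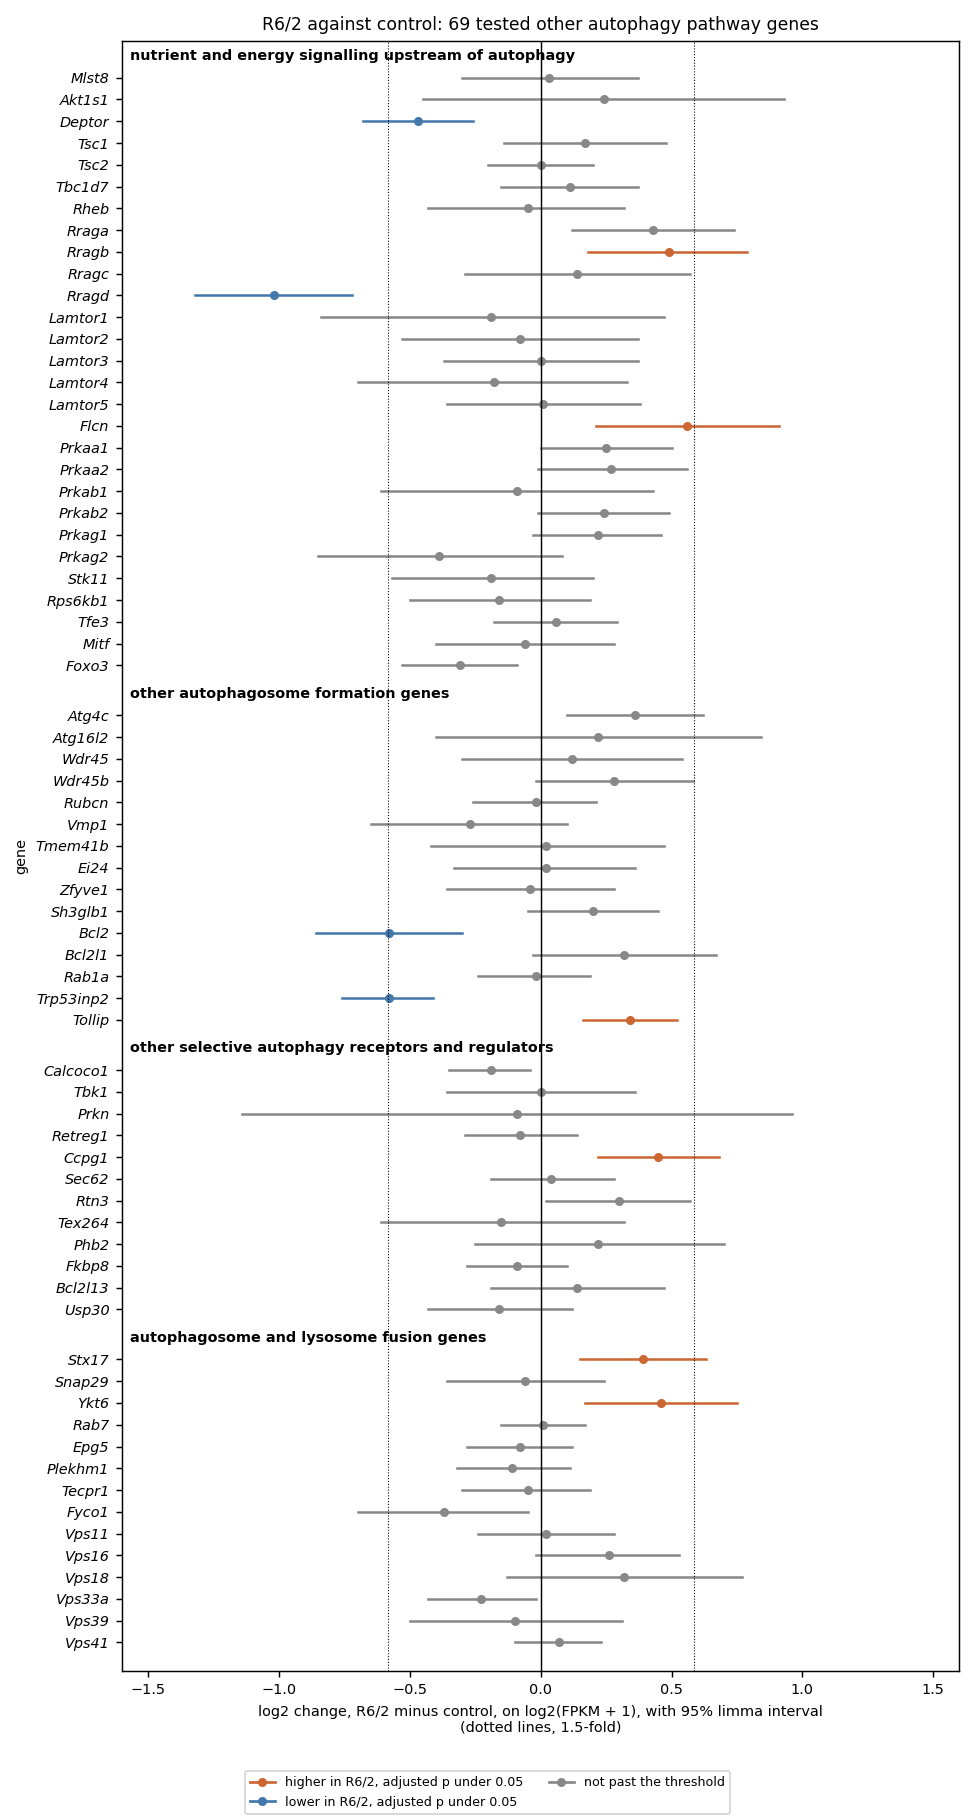
Estimated log2 change (x axis, R6/2 minus control on log2(FPKM + 1)) with its 95% limma interval for 69 other autophagy pathway genes (y axis) in 4 lists, coloured where the adjusted p was under 0.05. The 6 genes called higher lie between 0.34 and 0.56, and of the 4 called lower Rragd lies furthest out at -1.02.

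**Figure D4:**
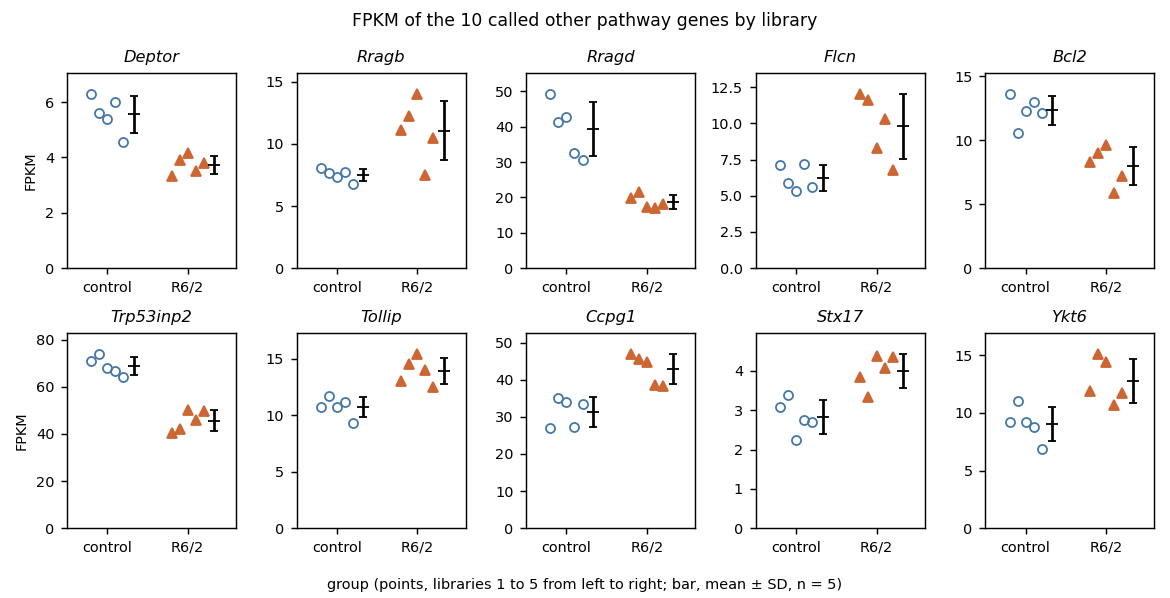
FPKM (y axis, from 0) of the 10 called pathway genes in the control and R6/2 libraries (x axis), each point a library, with the mean and SD (n = 5) beside them. For Rragd, Deptor, Bcl2, Trp53inp2, Tollip and Ccpg1 the groups do not overlap, and for the other 4 they do. These 6 are the only ones without overlap among the 69 tested pathway genes, where 13.1% of all genes tested had none.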

How the data were processed

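The authors deposited 1 table of FPKM values with a column for every library, from cDNA amplified with NuGEN Ovation and Nextera kits, per the labels' protocols. The submitters' processing notes name the aligner STAR (2.4.0), Cufflinks, Cuffdiff and the build GRCm38; options, annotation and any further normalization were not given in the sources used here. Columns were tied to samples by name, and a workbook listed in the labels was not used here. Symbols and positions came from GENCODE vM21 (GRCm38) by Ensembl ID, with 47220 of 47632 matched and all 42 autophagy genes found. Below 0.05 FPKM, ratios to Control 1 shared 1 common value for only 16.7% to 57.7% of genes, so whole reads were not recovered and depth is unknown. Of 79 ribosomal protein genes, 15 were listed at 0 in some library, so a 0 can be a failed estimate.

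limma 3.58.1 (R 4.3.3, empirical Bayes with trend, two-sided) was fitted to log2(FPKM + 1) of all genes averaging 1 FPKM or more, with 8 residual degrees of freedom. Folds on this scale understate changes of low genes. Intervals are 95%, per gene and unadjusted. The fit was tested on simulated data. The members and lists were chosen with earlier results of these data known. By rule, all 42 genes are named, 7 of them (Sqstm1, Map1lc3b, Becn1, Wdfy3, Optn, Tfeb and Ulk1) with each library's value whatever their result, and the 3 genes with the smallest p of each of the 4 pathway lists. Alternatives changed the pseudocount, filter, scaling, trend, weights, covariates and libraries.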

Additional observations from a re-analysis of the deposited data

Results flagged for a closer look

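In each group of 5 libraries, the gap between an extreme value and its neighbour was set against the group's whole range, and 5 of 84 groups passed Dixon's 95% limit, where chance passes about 1 in 20. For Nbr1, Control 2 was at 1059 FPKM and the other controls at 27.4 to 35.0 (gap 0.993 of the range). Atg9a was at 10.8 FPKM in Control 5 and 13.4 to 13.8 in the other controls (0.852). Ulk1 was at 38.1 FPKM in R6/2 4 and 27.0 to 28.9 in the other R6/2 libraries (0.835). Gabarapl2 was at 6.76 FPKM in Control 4 and 4.47 to 4.93 in the other controls (0.801). Optn was at 2.32 FPKM in R6/2 1 and 3.01 to 3.25 in the other R6/2 libraries (0.737).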

How the results depend on the processing

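Counts of autophagy genes called stayed at 0 higher and 0 lower with pseudocounts of 0.1 and 5 FPKM, no filter, a minimum of 5 FPKM, no trend, the replicate block and the cortical signal. Quantile normalization gave 2 higher (4.88% of the 41, where 6.99% of all genes tested were called higher). Rescaling gave 3 higher (7.32%, where all genes tested gave 9.32%) and array weights 2 lower (4.88%, where all genes tested gave 9.83%). Leaving out each library gave 0 to 1 higher and 0 to 4 lower, where all genes tested gave 3.62% to 5.6% higher and 7.5% to 9.54% lower. The median of the autophagy genes ran from -0.04 to 0.09. Of the other pathway genes, 6 higher and 4 lower became 2 higher without the filter, 10 higher after rescaling, 3 higher and 2 lower with the replicate block, 0 higher with the cortical signal, and 2 to 5 higher and 4 to 5 lower when each library was left out. Over all genes tested, 5.00% were called higher and 9.11% lower in the main fit. The share called higher became 2.18% without the filter, 9.32% after rescaling and 0.748% with the cortical signal. With the replicate block 2.33% were called higher and 6.13% lower. No pairing of the samples by library number was visible (correlations of deviations -0.053 to 0.049, with 1 of 5 pairs correlated best with its own number). Such correlations cannot show that there was none. The replicate block changed no call among the autophagy genes. Of the other pathway genes called lower, Deptor (limma adjusted p = 0.062) and Bcl2 (0.0589) did not pass with it.

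Most genes whose sign turned had estimates near 0; Nbr1 (0.29) and Atg4a (0.20) did not. Quantile normalization gave 0.09 for Rb1cc1, 0.03 for Atg13, 0.01 for Map1lc3a and Mtor, 0.07 for Gabarap and Gabarapl1 and 0.12 for Tax1bp1. Rescaling gave 0.09 for Rb1cc1 and Gabarap, 0.10 for Atg13, 0.03 for Becn1 and Atg7, 0.04 for Pik3c3 and Gabarapl1, 0.06 for Wipi2, 0.07 for Map1lc3a and Mtor, 0.11 for Tax1bp1 and 0.05 for Bnip3, where the median of protein-coding genes was 0.107. Array weights gave 0.01 for Rb1cc1. The cortical signal gave 0.07 for Atg13 and Atg14, -0.05 for Atg4a, -0.06 for Map1lc3b, 0.14 for Gabarapl1, -0.02 for Gabarapl2, -0.96 for Nbr1, 0.21 for Tax1bp1, 0.09 for Bnip3 and -0.00 for Bnip3l. Leaving out libraries gave -0.09 to 0.07 for Tax1bp1, -0.04 to 0.05 for Bnip3l, -0.11 to 0.05 for Atg13, -0.04 to 0.17 for Pik3r4, -0.10 to 0.04 for Gabarap, -0.07 to 0.06 for Rb1cc1, -0.40 to 1.30 for Nbr1, -0.26 to 0.06 for Uvrag, -0.19 to 0.01 for Gabarapl1, -0.12 to 0.06 for Mtor, -0.12 to 0.05 for Map1lc3a, -0.17 to 0.08 for Bnip3, -0.10 to 0.03 for Wipi2, -0.19 to 0.02 for Atg7, -0.05 to 0.18 for Gabarapl2 and -0.00 to 0.18 for Fundc1. The cause was not tested.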
